A study of Caenorhabditis elegans with 2 samples.

Results

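Broad SCC-1 domains are the 303 peaks of 5000 bp or more among the 6780 peaks that the authors deposited for 1 ChIP-seq library of adult Caenorhabditis elegans. They were selected on the width of the peak, a measured value of that same list, and the other 6477 peaks are narrower. Chromatin came from whole hermaphrodites of the strain fem-2(b245), with the genotype fem-2(b245)III, grown at 20 °C, and it was precipitated with a rabbit polyclonal antibody raised against 100 residues of SCC-1. A library of input DNA from the same strain was made beside it, so both libraries carry the fem-2 mutation and no other genotype was available for comparison. The labels describe the animals both as young adults with a germline and as gravid adults, and the antibody both as affinity purified and as crude. All cells of the worm are pooled in such chromatin, so a domain may come from different cells along its length. A peak list holds no expression values, and the labelled stage was not checked against marker genes.

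Cohesin is a ring-shaped protein complex that holds sister chromatids together until they separate and that also folds chromosomes into loops. SCC-1 is its kleisin subunit in dividing somatic and germ cells, the part that closes the ring, whereas related kleisins take its place in meiosis. A wide peak is a long stretch of signal above the threshold of the peak caller and may hold several sites of binding side by side. The signal inside the domains was not analysed here, and neither were read counts, so the depth behind the peaks is unknown. Positions are 1-based on the build WormBase WS220, and no gene annotation or genome sequence of that build was used.

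The members made up 4.47% of the peaks and held 17.9% of all bases inside peaks, 2.13 of 11.9 Mb. Their widths ran from 5001 to 16522 bp. The median was 6301 bp and the quartiles were 5476 and 7927 bp, whereas the narrower peaks had a median of 1179 bp and quartiles of 850 and 1850 bp. Of the 303 domains, 123 were under 6 kb wide, 106 were from 6 kb to under 8 kb, 38 were from 8 kb to under 10 kb, and 36 were 10 kb or wider. No gap in width marked the limit. The 3 members nearest to it were 5001 bp wide on chromosome II, 5005 bp on chromosome V and 5013 bp on chromosome I. The 3 widest peaks left out were 4972 bp wide on chromosome II, 4957 bp on chromosome II and 4957 bp on chromosome I.

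The deposited score, a value from the authors' peak caller whose scale is not named, hardly separated the members. A score of exactly 3100, at which scores pile up in this list, was given to 265 of the 303 domains, and 2 more lay above it. Together 88.1% of the domains and 15.0% of the narrower peaks had a score of 3100 or more. Score and width come from the same list, and their relation was not tested. The highest score among the domains was 3171, for a domain of 5542 bp on chromosome IV from 9363161 to 9368702. Because the scale is not named, it is unknown whether a value above 3100 stands for a stronger peak than those at 3100.

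Scores below 3100 occurred in 36 domains, all of them on the autosomes, which held 97.7% of all domains. Of these 36, 13 lay on chromosome III, which held 21.5% of all domains. Most of the widest domains also had a score of 3100 or more, but a lower score was more frequent among them. Of the 36 domains of 10 kb or wider, 9 had a score below 3100, whereas 10 of the 123 domains under 6 kb did. The lowest score, 126, belonged to a domain of 10257 bp on chromosome II from 9041108 to 9051364. A domain of 6552 bp with a score of 3100 began 126 bp after its end, the smallest gap between any adjacent pair of members. The next lowest score, 215, belonged to a domain of 6948 bp on chromosome V from 3434406 to 3441353. In all, 7 domains had a score under 1000, on chromosomes I, II, III, IV and V.

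**Figure D1:**
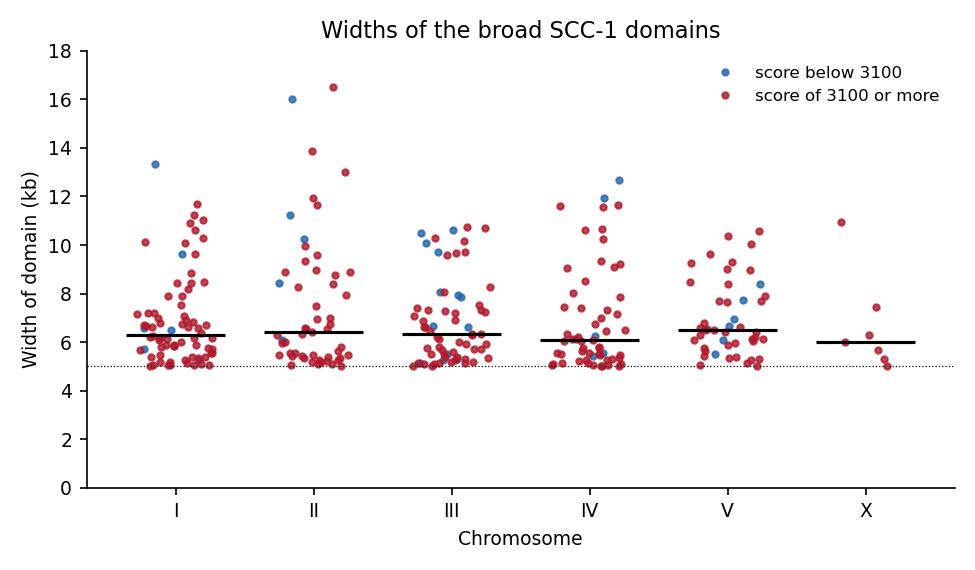
Width in kb of each of the 303 broad SCC-1 domains by chromosome, with 1 point per domain, a black line at the median of the chromosome and a dotted line at the lower limit of 5 kb. Medians lie between 6024 and 6506 bp on all 6 chromosomes. The 36 domains with a score below 3100 are spread over the range of widths and absent from X, which holds 7 domains.

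The 10 widest domains lay on chromosomes I, II and IV. Chromosome II had the 2 widest of all. The first, from 11964429 to 11980950, measured 16522 bp and scored 3100, and the second, from 11104971 to 11120997, measured 16027 bp and scored 1388. Chromosome II also held domains of 13891 bp from 14598619 to 14612509, of 12995 bp from 10541157 to 10554151 and of 11929 bp from 8456366 to 8468294. On chromosome I the widest was 13340 bp, from 4387228 to 4400567 with a score of 905, followed by 11694 bp from 4167693 to 4179386. Chromosome IV supplied the remaining 3, of 12666 bp from 3039432 to 3052097, of 11956 bp from 7134149 to 7146104 and of 11650 bp from 6903353 to 6915002. Their surroundings differed. The domain of 13891 bp had no peak within 20 kb of either edge, whereas the domain of 16027 bp had 7 such peaks. The widest domain of chromosome III measured 10749 bp, from 9050012 to 9060760, that of chromosome V 10578 bp, from 10018061 to 10028638, and that of X 10955 bp, from 16929142 to 16940096.

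Broad domains followed the number of peaks on the autosomes. Chromosome I held 74, chromosome II 53, chromosome III 65, chromosome IV 58, chromosome V 46 and X 7. As a share of the peaks of each chromosome this was 5.03% on I, 4.72% on II, 4.66% on III, 4.86% on IV and 4.22% on V. The exact binomial 95% interval of the lowest of these, from 3.11% to 5.59% on chromosome V, held the values of the other autosomes. Per length the domains differed more, because the peaks did. There were 4.92 domains per Mb on chromosome I, 4.72 on III, 3.48 on II, 3.32 on IV and 2.21 on V, each over the span, which is the stretch between the outermost peaks of a chromosome. Every interval given here reflects counting error alone, as if the peaks were independent.

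Few of the domains lay on X. Its 7 domains were 2.31% of all members (exact binomial 95% interval, 0.934% to 4.70%), whereas 7.74% of the narrower peaks lay on X. Most of that contrast came from the narrowest peaks. X held 2.94% of the peaks of 2 kb to under 5 kb, a share inside the interval of the domains, 4.84% of those of 1 kb to under 2 kb and 13.5% of those under 1 kb. They came to 0.395 domains per Mb, or 1 in 2530 kb, against 3.59 per Mb on the autosomes, or 1 in 278 kb. Domains of 5 kb or wider held 7.84% of the bases inside peaks on X and 18.4% on the autosomes. The X chromosome of hermaphrodites is dosage-compensated by a complex related to condensin, which lowers its transcription. All 7 domains of X had a score of 3100, and their widths ran from 5022 to 10955 bp with a median of 6024 bp, close to the autosomal median of 6312 bp.

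**Figure D2:**
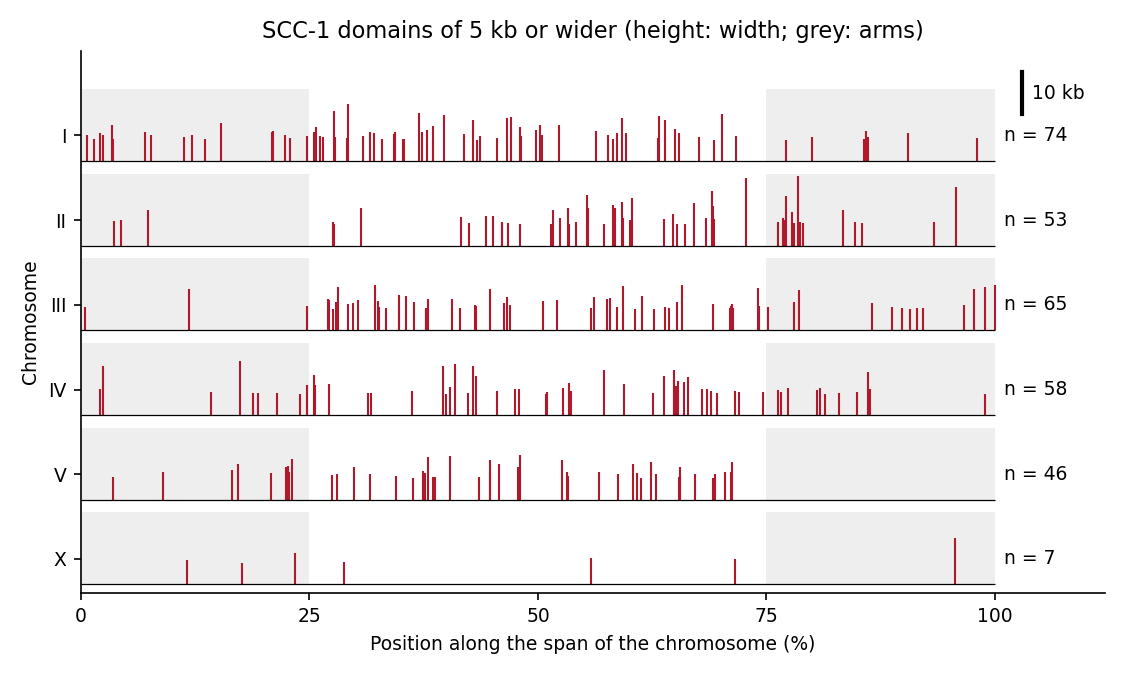
Position of each broad SCC-1 domain as a percentage of the span of its chromosome, with the height of a line giving the width of the domain (scale bar, 10 kb) and grey shading for the arms, the first and the last 25% of the span. Domains crowd in the unshaded centres of the autosomes, the right arm of chromosome V holds none, and X holds 7.

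On the autosomes the domains were concentrated in the chromosome centres. The centre was taken as the middle 50% of the span and the arms as the first and the last 25%, with each peak placed by its midpoint. Autosomal centres are the gene-dense part of these chromosomes, and the arms recombine more and hold more repeated sequence. Of the 296 autosomal domains, 210 lay in the centres, 41 in left arms and 45 in right arms. Arms had 2.09 domains per Mb and centres 5.10, which gives a ratio of 0.410 (exact binomial 95% interval, 0.315 to 0.529). Of narrower peaks, arms had 65.1 per Mb and centres 79.97, which gives 0.814 (interval, 0.773 to 0.857).

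The ratio followed width through the whole list. It was 0.410 for the broad domains, 0.584 for peaks of 2 kb to under 5 kb, 0.763 for peaks of 1 kb to under 2 kb and 1.07 for peaks under 1 kb. The interval of the broad domains, up to 0.529, just overlapped that of the next class, which began at 0.522, and the intervals of the other classes did not overlap each other or that of the domains. Each of the 5 autosomes had a lower ratio for broad domains than for narrower peaks. On chromosome I the ratio was 0.480 for domains and 0.820 for narrower peaks, on II 0.472 and 0.830, on III 0.327 and 0.831, on IV 0.526 and 0.903, and on V 0.243 and 0.687. On single chromosomes the intervals of the domains were wide. They overlapped those of the narrower peaks on I, II and IV, and did not on III, from 0.173 to 0.584, or on V, from 0.103 to 0.513. Domains were 3.11% of the peaks in autosomal arms (exact binomial 95% interval, 2.49% to 3.82%) and 5.99% of those in autosomal centres (5.23% to 6.83%). Domains of the arms had a median width of 6037.5 bp and those of the centres 6502.5 bp, with intervals that overlapped.

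Score and width could be read separately in part. Among autosomal peaks with a score of 3100 or more, the arm to centre ratio was 0.461 for the 260 broad domains, with an interval from 0.350 to 0.602, 0.636 for peaks of 2 kb to under 5 kb and 1.20 for peaks of 1 kb to under 2 kb. Only 18 peaks under 1 kb had such a score, and 16 of them lay in arms. Among peaks with a score below 3100 the ratio was 0.125 for the 36 broad domains, 4 in arms and 32 in centres, with an interval from 0.0321 to 0.352. It was 0.546 for peaks of 2 kb to under 5 kb at that score. The ratio was lower for wider peaks in both ranges of score, although at scores of 3100 or more the interval of the next class, from 0.537 to 0.751, overlapped that of the domains.

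**Figure D3:**
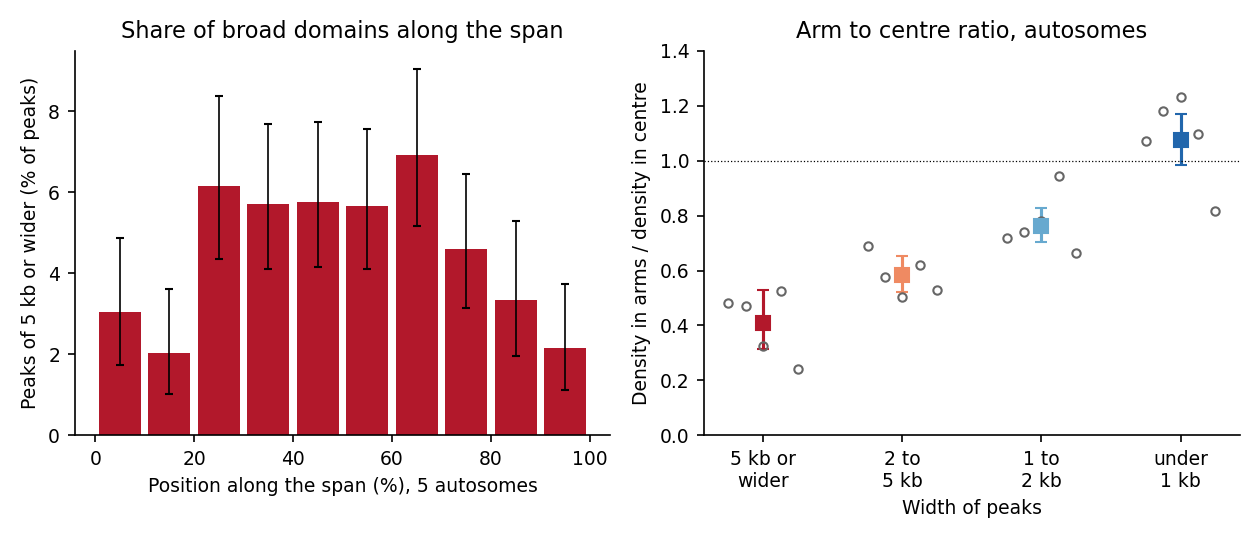
Left, peaks of 5 kb or wider as a percentage of all peaks in each step of 10% of the span, 5 autosomes together, with exact binomial 95% intervals. Right, density of peaks per Mb in the arms divided by that in the centre for 4 widths, with squares for the 5 autosomes together (exact binomial 95% intervals) and open circles for chromosomes I to V from left to right; the ratio is 0.410 for the broad domains and 1.07 for peaks under 1 kb.

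Along the span the share was highest in the middle. Over the 5 autosomes together domains were 3.04% and 2.04% of the peaks in the first and the second 10% of the span. The 5 steps of 10% between 20% and 70% held between 5.65% and 6.92%. In the remaining steps the share was 4.60%, then 3.34% and 2.15%. The narrower peaks changed less, from 59.7 per Mb in the sparsest step to 85.1 per Mb in the fullest, whereas domains ran from 1.34 to 5.95 per Mb.

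The arms were unequal. Chromosome V had 9 domains in its left arm, 37 in its centre and 0 in its right arm, where 205 narrower peaks lay. Its last domain ended 6006 kb before the last base of the span. Chromosome I had 17 domains on the left and 7 on the right, and chromosome IV 9 and 11. The right arm held more on chromosome II, 14 with 3 on the left, and on chromosome III, 13 with 3 on the left. Peaks of 2 kb to under 5 kb leaned to the same side as the domains on each autosome. The left and right arms held 86 and 39 of them on I, 21 and 68 on II and 42 and 62 on III. On IV they held 50 and 55, and on V 50 and 26. All narrower peaks leaned to the side of the domains on I, with 354 and 276, on II, with 176 and 309, and on III, with 257 and 346. So they did on V, with 220 and 205, but on IV, with 312 and 227, they leaned to the other side. Of all members, 1 lay within 20 kb of an end of a span. It was the last peak of chromosome III, 10631 bp wide, from 13761842 to 13772472, with a score of 3004. On the other chromosomes the last domain ended between 180 and 6006 kb before the end of the span, and the first domain began between 61.5 and 2057 kb after the start of the span over the 6 chromosomes.

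Neighbouring domains lay a median of 131.7 kb apart between midpoints, with an exact binomial 95% interval of the median from 116.9 to 152.4 kb over 297 distances. The middle 50% ran from 59.1 to 333.8 kb. Medians were 128.6 kb on chromosome I, 119.2 kb on II, 122.3 kb on III, 141.5 kb on IV, 229.98 kb on V and 1916 kb on X. Spacing was uneven. The standard deviation of the distances on the autosomes was 1.43 times their mean of 252.3 kb, with 64 of 291 within 50 kb and 41 over 500 kb. This ratio differed between autosomes, with 1.14 on I, 1.85 on II, 1.49 on III, 1.37 on IV and 1.08 on V. It is not given here for narrower peaks.

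**Figure D4:**
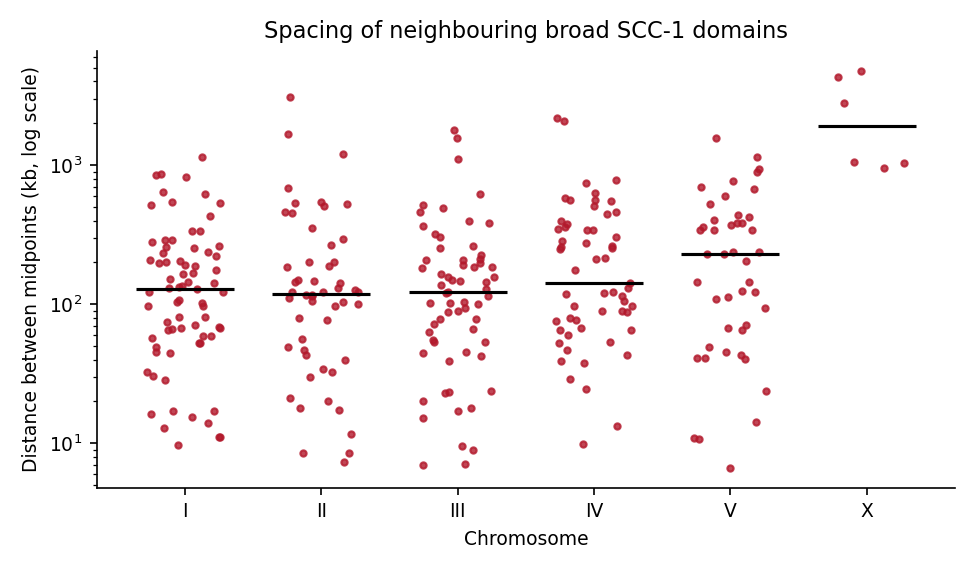
Distance in kb (log scale) between the midpoints of neighbouring broad SCC-1 domains by chromosome, with 1 point per distance and a black line at the median. Distances on the autosomes run from 6.65 to 3079 kb, and the 6 distances on X from 958 to 4783 kb.

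The longest stretch between neighbouring domains on an autosome was 3072 kb, on chromosome II from 1153932 to 4225916, and it held 135 narrower peaks. On X the longest ran for 4777 kb, from 5106367 to 9883634, with 107 narrower peaks inside. The longest stretches on the other autosomes were 2194 kb on chromosome IV from 15082513 to 17277010, 1773 kb on III from 1627399 to 3400088, 1558 kb on V from 1876494 to 3434405 and 1140 kb on I from 13616299 to 14755933. Each of these held between 51 and 142 narrower peaks. Windows of 1 Mb, counted from the first peak, show the other extreme. Of the 97 full windows, 22 held no domain, 10 of the 17 on X and 12 of the 80 on autosomes, and the median was 2. Another 10 windows held 8 or more domains, and 87 of the 303 domains lay in them. They were picked by that number, and their share of all peaks is not given here. The fullest had 10, on chromosome I from 5000001 to 6000000 and on III from 4000002 to 5000001. These 2 windows were also rich in peaks, with 113 and 114 in all. Over all chromosomes there were 64.7 narrower peaks and 3.03 domains per Mb.

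At the limit of 5000 bp, domains had a broad adjacent peak about as often as narrower peaks did. A median of 12 narrower peaks lay between neighbouring domains, with quartiles of 4 and 26. In 15 of 297 intervals, or 5.05%, there was no peak between them, while domains were 4.47% of all peaks. A broad adjacent peak was present for 28 of the 303 domains, or 9.24% (exact binomial 95% interval, 6.23% to 13.1%), and for 8.65% of the narrower peaks, with an interval from 7.97% to 9.36%. The intervals overlapped. These 28 domains formed 13 runs, 11 of 2 domains and 2 of 3 domains. The first run of 3 covered 39.3 kb of chromosome II from 10541157 to 10580431, with widths of 12995, 9330 and 6316 bp and gaps of 578 and 10056 bp. The other covered 73.8 kb of chromosome V from 4686496 to 4760286, with widths of 7750, 7907 and 6550 bp and gaps of 35065 and 16519 bp. The tightest run of 2 covered 12.6 kb of chromosome II from 4225917 to 4238526. None of the 7 domains of X, which were 1.38% of its peaks, was next to another.

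The nearest peak was close by. From the edge of a domain the median gap to the nearest peak was 934 bp, with an interval of the median from 665 to 1129 bp, whereas it was 1276 bp for narrower peaks, with an interval from 1203 to 1342 bp. The class most like the domains in width, peaks of 2 kb to under 5 kb, had a median of 789 bp, with an interval from 687 to 910 bp that overlapped that of the domains. Peaks under 1000 bp had the longest, 1755 bp. Between midpoints the order turned, with 5640 bp for domains and 3081 bp for narrower peaks, because the width of a domain is then part of the distance. In autosomal centres the edge gap was 868 bp for domains and 979 bp for narrower peaks, with overlapping intervals. In autosomal arms it was 938 bp for domains, with an interval from 479 to 1469 bp, and 1478 bp for narrower peaks, with an interval from 1358 to 1610 bp. These intervals overlapped as well. Peaks of 2 kb to under 5 kb in the arms had a median gap of 712 bp, with an interval from 519 to 975 bp.

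A gap of at most 1000 bp was present on both sides of 31 domains, on a single side of 126 and on neither side of 146. These were 10.2%, 41.6% and 48.2% of the domains, against 8.71%, 36.5% and 54.8% of the narrower peaks. Peaks of 2 kb to under 5 kb had close neighbours at least as often as the domains, with 13.0%, 42.5% and 44.5%. The gap was 100 bp or less for 43 domains, or 14.2%, for 10.4% of the narrower peaks and for 14.8% of those of 2 kb to under 5 kb. The shortest was 1 bp, on the right of the widest domain of chromosome I, where a peak of 1859 bp with a score of 131 followed. When neighbouring peaks 500 bp or less apart were joined, 507 peaks reached 5000 bp in place of 303. Of these, 298 held the 303 members, 209 held none, and 118 members became wider.

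Peaks beside the domains were slightly wider than those beside all narrower peaks. Over the 605 adjacent positions, where a peak between 2 domains counts for both, the median width was 1352 bp, with an interval of the median from 1285 to 1457 bp, whereas peaks adjacent to narrower peaks had a median of 1211 bp, with an interval from 1198 to 1229 bp. Beside peaks of 2 kb to under 5 kb the median was 1309 bp, and its interval, from 1269 to 1351 bp, overlapped that of the domains. Within regions of the autosomes the difference from narrower peaks was smaller. In autosomal centres the medians were 1446.5 bp beside domains and 1360 bp beside narrower peaks, and in autosomal arms they were 1202 and 1139 bp, with overlapping intervals in both. Over all chromosomes, adjacent peaks under 1 kb made up 29.6% of those beside domains and 36.9% of those beside narrower peaks. These 2 shares are not given here by region or for the single classes of narrower peaks. The median score of adjacent peaks was 526 beside domains and 491 beside narrower peaks over all chromosomes. The order turned within both regions of the autosomes, with 440 beside domains and 471 beside narrower peaks in arms, and 578 and 598 in centres.

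At larger distances the surroundings of domains and of narrower peaks differed little. Within 50 kb of the edges a domain had a median of 10 other peaks, with an interval from 9 to 10, and a narrower peak had 9. The number ran from 0 to 23 for both. The most crowded domains, with 23 such peaks, lay on chromosome I from 3828580 to 3835301 and on III from 5202367 to 5207630. Domains of the autosomal arms had a median of 10 and those of the autosomal centres also 10. Of all domains, 4 had no other peak within 50 kb, or 1.32%, and of the narrower peaks 1.22%. The most remote, on chromosome V from 3434406 to 3441353, had its nearest peak 64641 bp away. It was also the domain with the score of 215.

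Coverage by other peaks on the autosomes was highest between 1 and 5 kb from a domain and was lower farther out. The same held beside each class of narrower peaks. On the autosomes 20.1% of the bases in the first kb beyond the edge of a domain lay in other peaks. Further out 27.7% of the bases between 1 and 5 kb from the edge did so, 22.2% between 5 and 10 kb, 18.2% between 10 and 20 kb and 17.1% between 20 and 50 kb. In single steps of 1 kb beyond 20 kb it showed no further steady fall, with 15.1% between 21 and 22 kb, 19.3% between 28 and 29 kb and 19.6% between 49 and 50 kb. For the whole span of the autosomes the share was 13.7%. These shares were not split into arms and centres, and 210 of the 296 autosomal domains lay in centres. Position along the chromosome is therefore not separated from the distance to 13.7%. Beside peaks of 2 kb to under 5 kb the same shares, from the first kb outwards, were 21.7%, 27.8%, 21.4%, 17.1% and 16.5%. Beside peaks of 1 kb to under 2 kb they were 17.4%, 26.4%, 20.6%, 17.4% and 16.3%. Beside peaks under 1 kb they were 13.3%, 21.8%, 18.3%, 15.4% and 14.5%. The domains thus lay close to the next narrower class and above the narrowest at each of these distances.

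**Figure D5:**
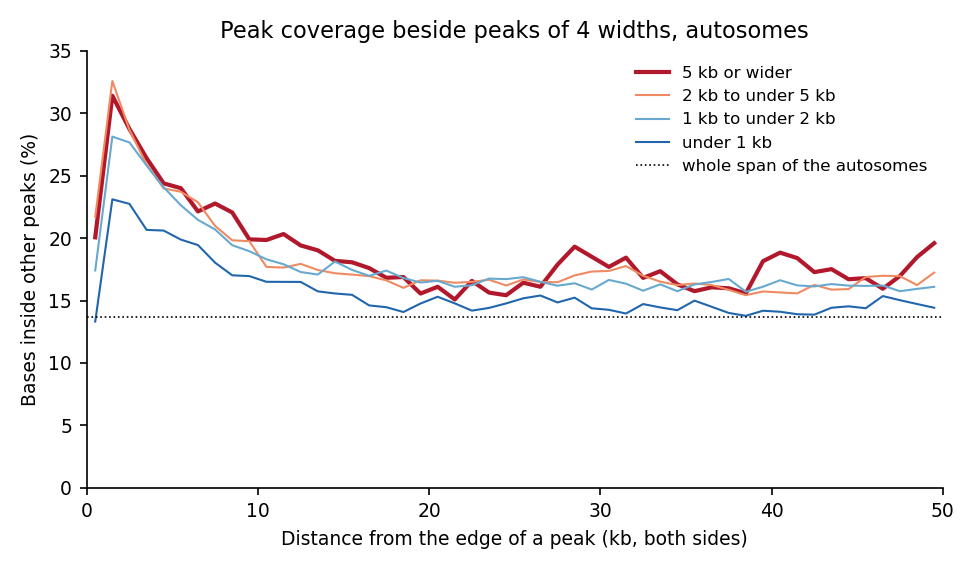
Percentage of bases that lie inside other peaks against the distance in kb from the edge of a peak, both sides together and in steps of 1 kb, for autosomal peaks of 4 widths, with a dotted line at 13.7% for the whole span of the autosomes. The curve of the broad domains runs close to that of peaks of 2 kb to under 5 kb over the first 5 kb. It departs from that curve in some steps farther out, with 18.8% and 15.6% between 40 and 41 kb. It lies above that of peaks under 1 kb at each distance shown.

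The domains of X varied in how near other peaks lay. Their nearest peaks were 394, 2598 and 8037 bp away for 3 of them and over 20 kb away for the other 4. The median gap was 27205 bp, with an interval from 394 to 58430 bp over 7 domains, whereas it was 6959 bp for the narrower peaks of X and 916.5 bp for autosomal domains. A nearest peak over 20 kb away was found for 23.4% of the narrower peaks of X and for 8 of the 296 autosomal domains. Within 50 kb the domains of X had a median of 2 other peaks, from 0 to 6, whereas narrower peaks of X had 3 and autosomal domains 10. The widest, from 16929142 to 16940096, had gaps of 56211 and 195355 bp on its sides. The shortest gap was at the domain from 4141914 to 4149380, with a peak of 718 bp 394 bp to its left. Beside the domains of X the median width of adjacent peaks was 802 bp, close to the 818 bp beside narrower peaks of X. With 7 domains these values have wide intervals, and that of the gap holds the value of the narrower peaks of X.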

How the data were processed

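ChIP-seq was made from 1 SCC-1 ChIP library and 1 input library. Per the labels' protocols, ground frozen worms were fixed in 1% formaldehyde for 10 min and 5 µg of antibody was used, and the input library started from 10 ng. The submitters' processing notes name BWA and ce10, and the deposited peak file names MACS and WormBase WS220. The versions, the threshold and any use of the input were not given in the sources used here. Deposited values used were the start, the end and the score of each peak. The score is the authors' own, on a scale that is not named. Depth is unknown. The series also has a peak file whose name gives another target and antibody, and its 1 score column was left aside.

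Width, gaps between edges, adjacent peaks, peaks within 50 kb, runs and coverage in steps of 1 kb were computed with Python 3.11.15, numpy 2.4.6, pandas 2.3.3, scipy 1.17.1 and matplotlib 3.10.9. Shares and density ratios carry exact (Clopper-Pearson) 95% intervals, and medians carry 95% intervals from order statistics. Both cover counting error only, and peaks are not replicates. There was 1 library per group, and members were chosen by width, so no test was made. The functions were checked on simulated peak lists. Regions were named by a fixed rule: the 10 widest, the widest of each chromosome, those nearest to the limit, the longest runs and the extremes of gap, crowding, score and position. The domains of X, the 7 domains with low scores, the fullest windows and the score ranges were chosen after their values were seen. The members and lists were chosen with earlier results of these data known.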

Additional observations from a re-analysis of the deposited data

How the results depend on the processing

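Of 42 recalculations, 30 stayed within the 95% interval of the reported value (for the number of domains, within 1.5 times). The arm to centre ratio of autosomal domains ran from 0.323 to 0.491 in all its alternatives, below that of narrower peaks each time. The share of domains on X stayed between 2.16% and 2.37%. The number of domains depended on the limit and on joining: 509 from 4000 bp, 180 from 6000 bp, 507 with peaks 500 bp or less apart joined and 659 with 1000 bp. By construction the median distance between neighbouring domains was then 96.7 kb from 4000 bp and 206.5 kb from 6000 bp. A broad adjacent peak was present for 18.3% of domains from 4000 bp (narrower peaks 13.9%), 20.7% after joining at 500 bp (16.9%) and 18.5% in the upper 50% of scores (16.4%). From 4000 bp and after joining, the intervals of the domains, 15.0% to 21.9% and 17.3% to 24.5%, lay above the value of narrower peaks. In the upper 50% of scores the interval, from 14.2% to 23.3%, held it. The median gap to the nearest peak was 1890 bp after joining, which removes gaps up to 500 bp, and 5640 bp between midpoints. Peaks adjacent to domains had a median width of 1202 bp in autosomal arms alone. Joining at 1000 bp, the regional values and leaving out single autosomes were chosen after seeing the data. So was leaving out X for broad adjacent peaks and for the number of peaks within 50 kb. No paired analysis was possible because each group has 1 library and no test was made. The depth is unknown, so a region without a domain may also be one where reads were too few.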
